A study of Mus musculus with 3 samples.

Results

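The receptor genes described here, in mouse epidermal Langerhans cells, are Adgre4, Adgre1, Adgre5, Gpr171, Gpr183, P2ry14, Hcar2, Lpar1 and Htr7. They are 9 of the 34289 genes listed in the count matrices. They were picked as G protein-coupled receptors gained or lost by Langerhans cells after skin injury, judged from the summed levels in these same libraries. Their levels in the Langerhans cells of the 3 libraries are therefore a description of how they were chosen, and no test is attached to them.

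Langerhans cells were isolated from the ear epidermis of male Cd1 mice and profiled with droplet single-cell RNA sequencing, in which each captured transcript is counted once by its unique molecular identifier (UMI). There were 3 libraries, 1 in each group. Control mice had received Nair only. The croton oil group had croton oil applied to the ear, mixed with acetone and olive oil, and in the microneedle group the ear was punched repeatedly with a microneedle array. Both treated groups were processed 48 h after the first treatment. The labels give no number of animals for a library and name no transgene, but the count matrices list 4 transgene sequences (mCherry, eGFP, tdTomato and creER). Of these, mCherry was counted in keratinocytes at 518, 2149 and 2504 CPM (UMIs per 1000000 UMIs summed over the cells) in the untreated, croton oil and microneedle libraries, and in Langerhans cells at 7.74, 10.5 and 2.21 CPM. In Langerhans cells eGFP was at or under 1.52 CPM, and tdTomato and creER had no UMI. Which animals carried a reporter is not given in the sources used here. With 1 library per group no test across animals exists, so fixed fold rules replace p-values. The exact intervals given below cover counting error only, not variation between mice. Both treated libraries are compared with the same untreated library.

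Langerhans cells live among the keratinocytes of the epidermis, take up antigen there and carry it to the draining lymph node. G protein-coupled receptors span the membrane, bind a ligand outside the cell and pass the signal to heterotrimeric G proteins inside. Many of them read lipids, nucleotides, metabolites or amines released in damaged or inflamed skin, and several guide the movement of leukocytes. Gpr183 (EBI2) senses oxysterols, Lpar1 senses lysophosphatidic acid, Htr7 senses serotonin, P2ry14 senses UDP-sugars, and Hcar2 senses beta-hydroxybutyrate and niacin. Adgre1 (the F4/80 antigen), Adgre4 and Adgre5 (the CD97 antigen) are adhesion receptors with extracellular EGF-like domains. Gpr171 belongs by sequence to the P2Y-like receptors.

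The libraries held 9876 barcodes (untreated), 8241 (croton oil) and 6945 (microneedle), with 117178809 to 127666928 UMIs each. After filtering, 9054, 7626 and 6479 cells were retained. At most 32 barcodes were shared by any pair of libraries. A cell was called a Langerhans cell when Cd74, H2-Aa, H2-Ab1 and H2-Eb1 together made up at least 2% of its UMIs and Epcam had at least 2 UMIs. This gate took 8651 untreated, 5925 croton oil and 5292 microneedle cells, which were 95.5%, 77.7% and 81.7% of the retained cells. Their median depths were 11526, 12586 and 17346 UMIs. The defining marker Cd207 stood at 568, 327 and 465 CPM over the gated cells, and 9 of 10 Langerhans cell markers reached 20 CPM in every library. Near the gate, 50, 186 and 38 cells passed on MHC class II but had 1 Epcam UMI, and 59, 211 and 40 gated cells had exactly 2. The gate left out most cells of a Langerhans cell-like cluster led by Fscn1, an actin-bundling gene of migrating dendritic cells: 240 of its 932 croton oil cells and 20 of its 176 microneedle cells passed. Summed T cell markers in the gated cells stood at 7.48, 107 and 29.1 CPM, and summed monocyte/macrophage markers at 61.8, 194 and 104 CPM. The largest of these were Cd3g, at 25.2 CPM after croton oil, and Cd14, at 112 CPM. Summed neutrophil markers stood at 2801, 2943 and 4228 CPM, of which Il1r2 alone gave 2482, 2635 and 3945 CPM. Summed keratinocyte markers stood at 238, 203 and 49.6 CPM.

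RefSeq promoter windows were at hand for 5 of the 9 genes: Adgre4, Gpr183, P2ry14, Lpar1 and Htr7. No window was at hand for Adgre1, Adgre5, Gpr171 and Hcar2. The 250 bases before the annotated start are printed for Adgre4, which was lower after injury, and for the other 4, which were higher, so that the letters upstream of genes with opposite changes can be set side by side. The positions are on build GRCm38.p6: chr17:55749734-55749983 on the plus strand for Adgre4, and, on the minus strand, chr14:121965194-121965443 for Gpr183, chr3:59153493-59153742 for P2ry14, chr4:58499404-58499653 for Lpar1 and chr19:36057361-36057610 for Htr7. P2ry14 has 4 annotated windows and Lpar1 has 3, and the window shown of each is the one with a match to a searched motif, for P2ry14 the one with matches to 2 motifs. Capitals mark motif matches.
Adgre4: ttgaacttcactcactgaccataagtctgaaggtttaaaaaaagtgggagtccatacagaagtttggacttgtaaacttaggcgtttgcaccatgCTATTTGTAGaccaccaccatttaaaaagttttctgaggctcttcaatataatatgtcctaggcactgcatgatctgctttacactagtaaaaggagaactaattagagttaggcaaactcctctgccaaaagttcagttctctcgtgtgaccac
Gpr183: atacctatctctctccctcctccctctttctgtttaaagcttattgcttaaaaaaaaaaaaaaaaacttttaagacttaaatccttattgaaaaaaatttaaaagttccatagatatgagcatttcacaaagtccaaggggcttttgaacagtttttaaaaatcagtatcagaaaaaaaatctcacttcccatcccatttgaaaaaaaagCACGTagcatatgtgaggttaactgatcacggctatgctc
P2ry14: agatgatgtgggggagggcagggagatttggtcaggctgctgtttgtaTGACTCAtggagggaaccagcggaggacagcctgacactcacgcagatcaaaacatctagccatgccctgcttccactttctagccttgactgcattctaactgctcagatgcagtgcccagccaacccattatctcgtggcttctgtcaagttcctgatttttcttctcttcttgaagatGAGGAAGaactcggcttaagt
Lpar1: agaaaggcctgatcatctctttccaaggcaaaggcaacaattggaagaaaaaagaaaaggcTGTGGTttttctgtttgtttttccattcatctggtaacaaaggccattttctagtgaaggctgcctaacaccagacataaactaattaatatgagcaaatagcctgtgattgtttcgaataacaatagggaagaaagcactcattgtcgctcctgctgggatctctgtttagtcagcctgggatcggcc
Htr7: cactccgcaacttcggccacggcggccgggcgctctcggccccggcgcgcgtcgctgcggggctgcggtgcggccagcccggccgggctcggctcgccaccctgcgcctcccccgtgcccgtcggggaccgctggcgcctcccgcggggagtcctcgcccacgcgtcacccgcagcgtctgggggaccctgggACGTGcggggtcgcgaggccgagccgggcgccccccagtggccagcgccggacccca

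The motifs searched were looked for on both strands of the 250 bases, and were the AP-1 site TGANTCA, the NF-kB site, the PU.1 site GAGGAAG, the RUNX site TGTGGT, the hypoxia response core ACGTG, the interferon-stimulated response element (GAAA and GAAA with any 2 bases between) and the MEF2 site (CTA and TAG with any 4 bases between). AP-1 and MEF2 are palindromic, so a match on one strand is the same match on the other. The Adgre4 window held a MEF2 match 155 to 146 bases before the start, a motif found in 3.20% of all 32851 promoter windows. P2ry14 held an AP-1 match 202 to 196 bases before the start (6.75% of all windows) and a PU.1 match 21 to 15 bases before it (10.6%). A further P2ry14 window held an AP-1 match 144 to 138 bases before its start. Gpr183 and Htr7 each held a hypoxia core (16.6% of all windows), 40 to 36 and 57 to 53 bases before the start, and the third Lpar1 window held a RUNX match (14.05%). No motif was shared by all 4 genes that were higher, and neither NF-kB nor the interferon element was matched in any of the 10 windows. The Htr7 window was 82% G and C against 32% for Gpr183 and 39.6% for Adgre4, with a median of 52.4% over all windows. A match describes letters, not a bound site.

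Injury was accompanied by opposite changes within this receptor set. In croton oil cells, 5 of the 9 were at least 2-fold above untreated (Gpr171, Htr7, Gpr183, Lpar1 and P2ry14), 2 were at least 2-fold below (Adgre4 and Hcar2) and 2 were within 2-fold (Adgre1 and Adgre5). In microneedle cells the counts were 4, 2 and 3, with P2ry14 now within 2-fold. Changes were taken on the log2(CPM + 5) scale among genes reaching 20 CPM in at least 1 of the 2 libraries. All 9 genes passed that filter in both comparisons. Gpr171, Htr7 and Adgre5 passed only through the treated libraries, and Adgre4 against croton oil only through the untreated one, so these had to differ to be counted. Over all genes compared, 5.53% were at least 2-fold higher and 5.46% lower after croton oil, and 3.86% higher and 1.78% lower after microneedles. Because the genes were chosen on these contrasts, nothing is read from the difference between the set and this background. With TMM scaling the croton oil split over all genes was 482 higher and 290 lower, beside 378 and 373 here, and the median of all genes moved from -0.03 to 0.07.

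**Figure D1:**
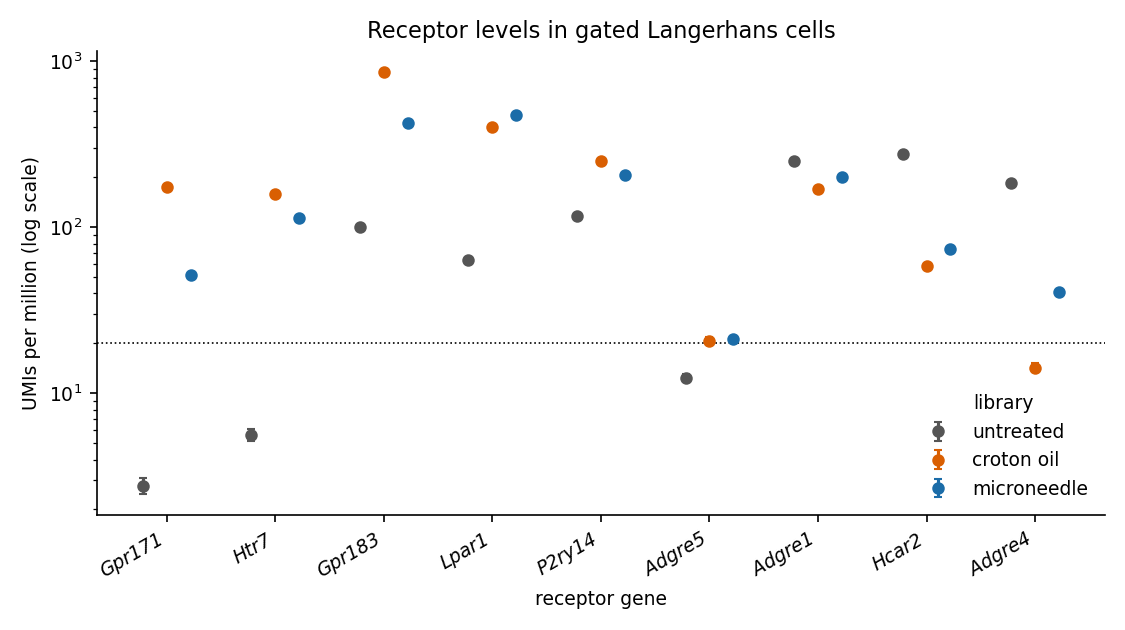
Levels of the 9 receptor genes in gated Langerhans cells, in CPM on a log scale, for the untreated, croton oil and microneedle libraries (1 library each). Bars are exact 95% Poisson intervals of the counts, mostly smaller than the points, and the dotted line marks 20 CPM. The first 5 genes lie higher in both treated libraries, and Hcar2 and Adgre4 lie lower in both.

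Among the receptors that were higher, Gpr183 had the highest level after croton oil, while Lpar1 was highest after microneedles and P2ry14 in untreated cells. This oxysterol receptor positions B cells, T cells and dendritic cells in lymphoid tissue along gradients of oxysterols. It stood at 101 CPM in untreated Langerhans cells, 859 CPM after croton oil and 424 CPM after microneedles. The intervals did not overlap, and croton oil lay above microneedle, which lay above untreated. These levels gave 8.49-fold (8.32 to 8.66) above untreated for croton oil and 4.19-fold (4.10 to 4.28) for microneedles. Croton oil cells exceeded microneedle cells 2.03-fold.

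The number of Gpr183-positive cells moved together with the level. When every cell was thinned to 3000 UMIs, 13.3% of untreated Langerhans cells held a Gpr183 UMI (exact 95% interval 12.6 to 14.01), against 78.8% (77.8 to 79.9) after croton oil and 47.2% (45.8 to 48.5) after microneedles. Thinning left out 102, 32 and 59 shallower cells. The unthinned shares were 24.6%, 95.1% and 71.6%. Positive cells also held more: the mean was 2.22 UMIs per positive untreated cell, 3.37 after croton oil and 2.60 after microneedles. Cells with at least 3 UMIs made up 3.84%, 42.3% and 18.4% of the total. In untreated skin more cells held 3 or more Gpr183 UMIs than held 2 (2.50%), so the transcript was unevenly spread among those cells.

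Lpar1, the receptor for lysophosphatidic acid, stood at 63.4 CPM in untreated cells, 400.2 CPM after croton oil and 479 CPM after microneedles. It was the only one of the 5 higher receptors with its top level after microneedles, 1.20-fold above croton oil. The folds over untreated were 6.31 (6.15 to 6.48) and 7.54 (7.36 to 7.74). At 3000 UMIs, 14.1%, 52.8% and 56.1% of Langerhans cells were positive.

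Other receptors for lysophosphatidic acid did not share that pattern of levels, which was looked up after the values of Lpar1 were seen. Lpar3 stood at 682, 477 and 632 CPM, a log2 change of -0.51 after croton oil and -0.11 after microneedles. Lpar2, Lpar4, Lpar5 and Lpar6 were all under 20 CPM in every library.

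Htr7, a serotonin receptor coupled to stimulation of adenylyl cyclase, was close to the bottom of the scale in untreated cells at 5.61 CPM. It stood at 158 CPM after croton oil and 114 CPM after microneedles, 28.2-fold (26.0 to 30.6) and 20.4-fold (18.8 to 22.1) above untreated. On the log2(CPM + 5) scale the changes were 3.94 and 3.49. The thinned shares of positive cells were 1.22%, 26.3% and 19.8%.

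The other serotonin receptor genes on the list of amine receptors (Htr1a, Htr1b, Htr1d, Htr2a, Htr2b, Htr2c, Htr4 and Htr6), looked up after the values of Htr7 were seen, were at or under 2.60 CPM in every library. Slc6a4, the serotonin transporter, was lower: it stood at 32.8, 4.32 and 6.60 CPM, log2 changes of -2.02 and -1.71.

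Gpr171 showed the widest range. It stood at 2.77 CPM in untreated Langerhans cells, 176 CPM after croton oil and 52.0 CPM after microneedles. These are 63.5-fold (56.6 to 71.4) and 18.8-fold (16.7 to 21.2) above untreated. The changes on the log2(CPM + 5) scale, which are smaller at so low an untreated level, were 4.54 and 2.88. Croton oil cells held 3.38-fold (3.28 to 3.49) more than microneedle cells, the largest gap between the treatments among the 9. Positive cells at 3000 UMIs made up 0.667%, 38.1% and 12.2%.

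P2ry14, the UDP-glucose receptor, changed least among the 5. It stood at 117 CPM in untreated cells, 250.5 CPM after croton oil and 206 CPM after microneedles. The folds were 2.15 (2.10 to 2.20) and 1.76 (1.72 to 1.80), on either side of the 2-fold line. With all cells of the Langerhans cell-like clusters in place of the gate, its croton oil change was 0.93 on the log2 scale and no longer past 2-fold. At 3000 UMIs, 24.0%, 43.6% and 36.8% of cells were positive.

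Of the receptors that were lower, Adgre4 showed the larger change. This EGF-like adhesion receptor (EMR4) is found on mouse myeloid cells. It stood at 186 CPM in untreated Langerhans cells, 14.3 CPM after croton oil and 40.8 CPM after microneedles. Untreated cells thus exceeded croton oil cells 12.99-fold (12.2 to 13.8) and microneedle cells 4.56-fold (4.40 to 4.72). Microneedle cells held 2.85-fold more than croton oil cells. The share of positive cells at 3000 UMIs was 39.8%, 3.68% and 11.0%, and that of cells with at least 3 UMIs was 3.40%, 0.0170% and 0.287%.

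Hcar2, a Gi-coupled receptor for beta-hydroxybutyrate, niacin and monomethyl fumarate, stood at 277 CPM in untreated Langerhans cells. After croton oil it was at 58.4 CPM and after microneedles at 74.1 CPM, 4.74-fold (4.60 to 4.89) and 3.73-fold (3.63 to 3.83) below untreated. Positive cells at 3000 UMIs made up 50.5%, 13.5% and 17.7%. Its neighbour Hcar1, a lactate receptor that lies 11236 bases away on chromosome 5, was near the floor at 3.37, 0.429 and 0.506 CPM. The sequences of Hcar2 and Hcar1 were not compared, and how reads that match several genes were counted is not given in the sources used here.

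Ffar2, a short-chain fatty acid receptor in the list of metabolite receptors, also had lower levels. It stood at 148, 30.4 and 54.6 CPM, log2 changes of -2.11 and -1.36.

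The remaining adhesion receptors, Adgre1 and Adgre5, stayed within 2-fold. Adgre1, which encodes the macrophage antigen F4/80, stood at 251, 170 and 201 CPM, log2 changes of -0.55 and -0.31. The 3 intervals did not overlap, and untreated cells were highest, 1.48-fold (1.45 to 1.51) above croton oil. Positive cells at 3000 UMIs made up 47.9%, 33.9% and 39.2%. Adgre5, which encodes CD97 and binds CD55 and Thy1, was at the edge of the 20 CPM filter with 12.5, 20.8 and 21.2 CPM. It was 1.67-fold (1.55 to 1.79) and 1.70-fold (1.59 to 1.82) above untreated, and the treated libraries overlapped. At most 4.93% of cells held an Adgre5 UMI at 3000 UMIs. Adgre4 and Adgre1 lie 1490298 bases apart on chromosome 17, and their changes after croton oil were -3.31 and -0.55.

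The receptors were then read in the other cell types of the suspension. T cells did not form a cluster of their own, so T cells are taken as the cells of a cluster with both T cell and Langerhans cell markers that had less than 2% MHC class II, a split chosen after its values were seen: 137 of the 238 cells were below 0.2%, 7 lay between 0.2% and 2%, and 94 were at or above 2%. Outside the gate there were 129 T cells in the croton oil library, 212 and 394 neutrophils after croton oil and microneedles, 385 monocyte/macrophage-like cells after microneedles, and 240, 216 and 98 keratinocytes. The monocyte/macrophage-like cluster also carried 3 of 6 endothelial markers above the naming level. The untreated library held 1 T cell, 1 neutrophil and 3 macrophages, too few to read, so no class but the keratinocytes can be compared with Langerhans cells across all 3 libraries.

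**Figure D2:**
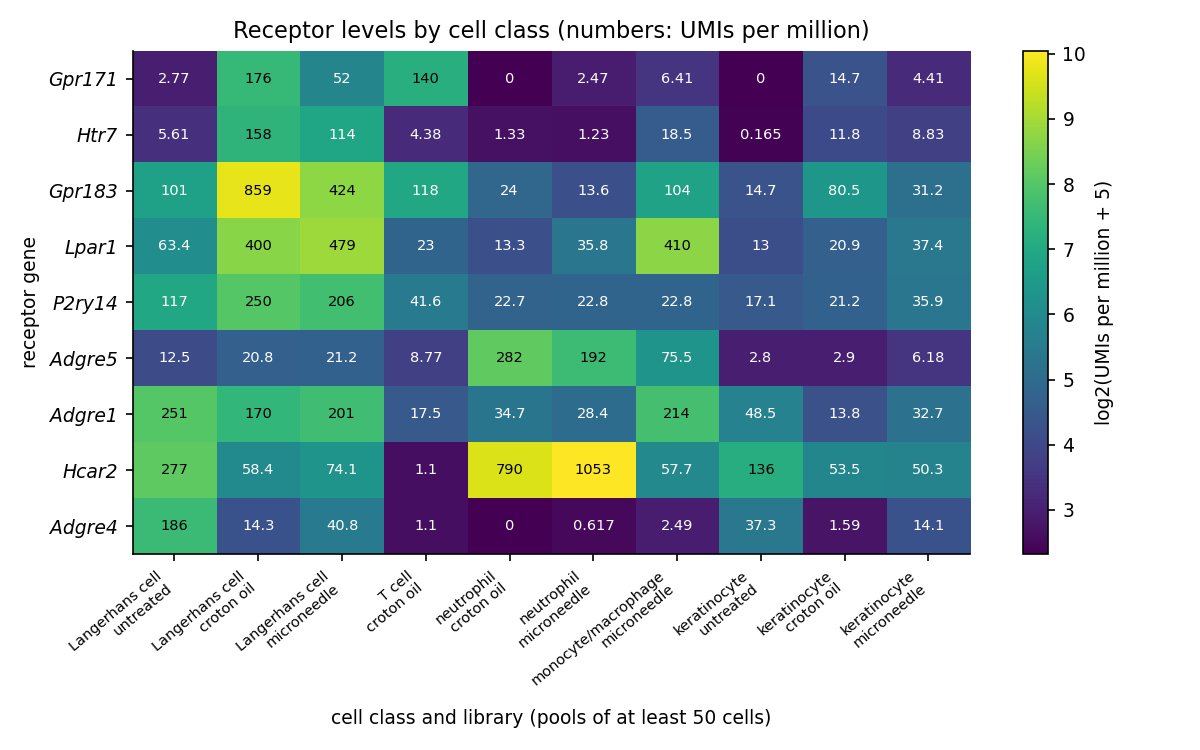
Levels of the 9 receptor genes in each cell class and library with at least 50 cells, printed in CPM and coloured by log2(CPM + 5). Hcar2 and Adgre5 are highest in neutrophils, Gpr171 is close in T cells and croton oil Langerhans cells, and Lpar1 and Adgre1 are shared with the monocyte/macrophage-like cells.

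Gpr171 was shared with T cells. T cells of the croton oil library stood at 140 CPM (117 to 167) against 176 CPM in Langerhans cells, and 35.2% of the 122 deep enough to be thinned were positive at 3000 UMIs. The level in Langerhans cells was 1.25 times that in T cells. For the 14 T cell markers the same ratio had a median of 0.00817 and a maximum of 0.0269 across the markers. Without the gated cells that held any UMI of the T cell receptor or CD3 genes or of the neutrophil genes Csf3r, Cxcr2 and Retnlg, the log2 change of Gpr171 after croton oil was 4.56, against 4.54 with them. The part of free T cell RNA in the Gpr171 level was not tested.

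Hcar2 and Adgre5 were highest in neutrophils. Hcar2 stood at 790 CPM (728 to 857) in croton oil neutrophils and 1053 CPM (1004 to 1104) in microneedle neutrophils, at median depths of 3042 and 3270 UMIs. Thinning to 3000 UMIs left out 103 and 146 of these shallow cells, and 75.2% of the remaining 109 and 82.3% of the remaining 248 were positive. The unthinned shares over all of them were 66.0% and 78.7%. Adgre5 stood at 282 CPM (245 to 322) and 192 CPM (171 to 214). Every neutrophil pool thus lay above every Langerhans cell pool for Hcar2, untreated cells with 277 CPM included. Langerhans cells held 0.0739 of the neutrophil Hcar2 level after croton oil and 0.0704 after microneedles, against medians of 0.00137 and 0.00168 for the 11 neutrophil markers. Among those markers the maximum ratios were 1.18 and 1.81, from Il1r2.

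The monocyte/macrophage-like cells of the microneedle library shared Lpar1 and Adgre1 with Langerhans cells. Lpar1 stood at 410 CPM (387 to 434), close to the 479 CPM of Langerhans cells, at median depths of 6719 and 17346 UMIs. At 3000 UMIs 55.9% of the 295 cells deep enough were positive, with 90 left out, against 56.1% of Langerhans cells. The unthinned shares were 67.5% and 83.8%. Adgre1 stood at 214 CPM (197 to 232), and its interval overlapped the 201 CPM of Langerhans cells. Gpr183 stood at 104 CPM and Adgre5 at 75.5 CPM, 3.57 times the Langerhans cell level of Adgre5. The median ratio of 14 monocyte/macrophage markers, Langerhans cells over these cells, was 0.00136. Adgre4, in contrast to Adgre1, was at 2.49 CPM there and at or near 0 in neutrophils and T cells.

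Keratinocytes were read as a gauge of Langerhans cell RNA in other droplets, since droplets take up transcripts released by other cells. Over 9 Langerhans cell markers, the median keratinocyte level was 0.161, 0.0823 and 0.137 of the Langerhans cell level in the untreated, croton oil and microneedle libraries. Keratinocyte-like droplets were also deep, with medians of 24879, 50698 and 26738 UMIs. Over the same markers the other classes lay lower. After croton oil the median was 0.0377 in T cells and 0.0186 in neutrophils. After microneedles it was 0.0374 in neutrophils and 0.0345 in monocyte/macrophage-like cells. The keratinocyte ratios thus need not be free RNA alone, and the part of droplets shared with Langerhans cells was not tested. Adgre1, Gpr183, P2ry14 and Lpar1 stood at 0.193, 0.145, 0.147 and 0.205 of their Langerhans cell level in the untreated library, near that median. In the croton oil library these 4 stood at 0.0811, 0.0937, 0.0848 and 0.0521, and in the microneedle library at 0.162, 0.0736, 0.175 and 0.0781. Adgre4 stood at 0.2004, 0.111 and 0.346 in the 3 libraries and Adgre5 at 0.225, 0.140 and 0.292, so both lay above the marker median in each.

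Hcar2 had the highest ratio of the 9 in every library. Keratinocytes held 136, 53.5 and 50.3 CPM of Hcar2, which is 0.492, 0.917 and 0.678 of the Langerhans cell level. At 3000 UMIs 33.7% (27.3 to 40.5), 18.1% (12.97 to 24.3) and 6.25% (2.06 to 13.99) of the 208, 193 and 80 keratinocytes deep enough were positive, and unthinned 66.7%, 65.7% and 48.0% of all keratinocytes. The keratinocyte shares of Adgre4 were 9.62%, 0.518% and 7.5%, so the Hcar2 share lay above that of Adgre4 in the untreated and croton oil libraries and not in the microneedle one, where Lpar1 also stood at 6.25%. The part of free RNA in the Hcar2 level of keratinocytes was not tested. Hcar2 in keratinocytes was also lower after croton oil than in untreated skin. Adgre4 in keratinocytes stood at 37.3, 1.59 and 14.1 CPM, in the same order as in Langerhans cells. For Gpr183, 13.5% of croton oil keratinocytes held a UMI at 3000 UMIs and 42.6% (35.9 to 49.5) unthinned, against 78.8% and 95.1% of Langerhans cells. The keratinocytes were the deeper of these, with a median of 50698 UMIs against 12586, so thinning took more from them.

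Single Langerhans cells were then followed by which receptors they held together. Gpr171, Gpr183, Lpar1 and Htr7, at least 2-fold higher after both treatments, are called gained, and Adgre4 and Hcar2 are called lost. These groups were named on levels in the same libraries, so their shares across libraries describe that choice. They also hold unequal numbers of genes, so the gained and lost shares are not on a like footing. At 3000 UMIs, 26.4% of untreated cells held a UMI of at least 1 gained receptor, against 94.9% after croton oil and 80.7% after microneedles. At least 1 lost receptor was found in 70.1%, 16.3% and 25.8%. Cells with a lost and no gained receptor made up 52.0% of untreated cells, 1.31% of croton oil cells and 7.30% of microneedle cells. Cells with both made up 18.1%, 15.0% and 18.5%.

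**Figure D3:**
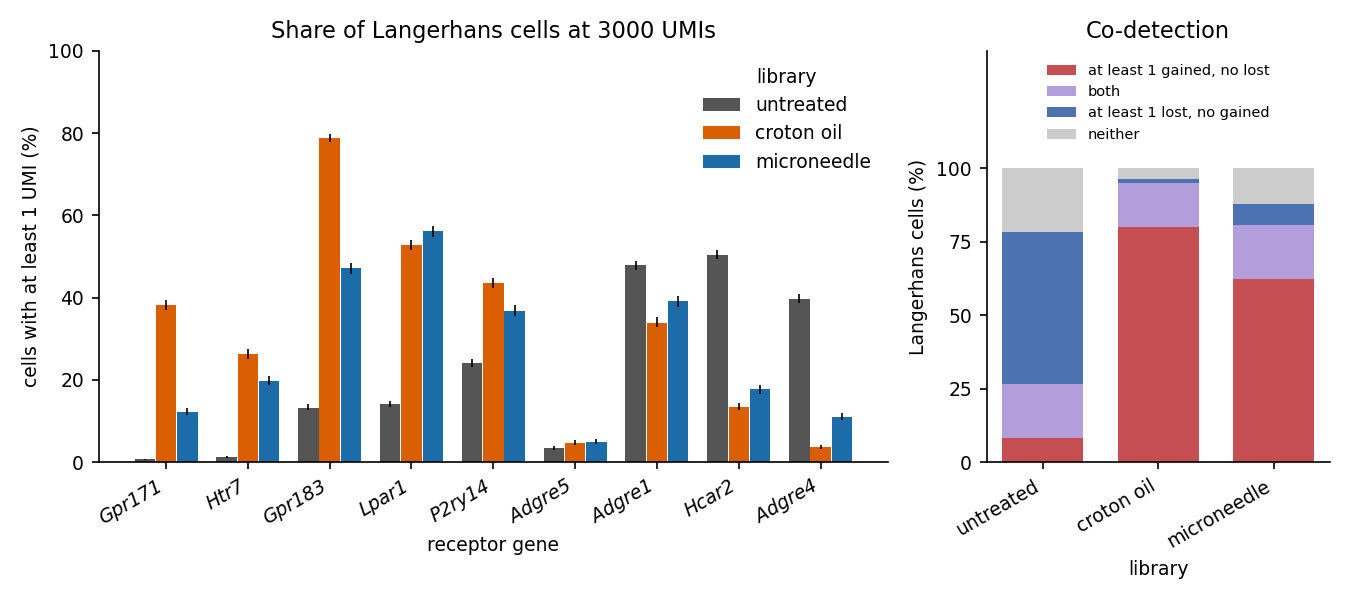
Left, share of gated Langerhans cells with at least 1 UMI of each receptor after thinning to 3000 UMIs, by library, with exact 95% binomial bars. Right, share of cells holding gained receptors (Gpr171, Gpr183, Lpar1, Htr7), lost receptors (Adgre4, Hcar2), both or neither. Cells with a gained and no lost receptor make up 8.35%, 79.9% and 62.2%. The gained and lost receptors were named on levels in these same libraries.

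Within each library, cells with a gained receptor were set against those without. Among untreated cells a lost receptor was found in 68.4% (66.5 to 70.3) of those with a gained receptor and in 70.7% (69.5 to 71.8) of those without, intervals that overlap. In the microneedle library the shares with a lost receptor were 22.9% (21.6 to 24.2) and 37.8% (34.8 to 40.8), and in the croton oil library 15.8% (14.9 to 16.8) and 25.7% (20.8 to 31.0). Cells of 1 library are not replicates, so these intervals describe the libraries. The single pair with the widest gap was Gpr183 and Adgre4 in the microneedle library. There, Gpr183 was detected in 29.4% of cells with an Adgre4 UMI and in 49.3% of those without. After croton oil these shares were 71.0% and 79.1%, and in untreated cells 10.8% (9.75 to 11.9) and 14.9% (13.97 to 15.9). In croton oil cells Gpr183 alone of the gained receptors had intervals apart. Split on Hcar2, it was detected in 71.0% and 80.0%. For Gpr171, Lpar1 and Htr7 the intervals overlapped, split on either lost receptor. Split on Adgre4, Gpr171 was detected in 39.2% and 38.1%, Lpar1 in 55.8% and 52.7%, and Htr7 in 23.0% and 26.4%. Among the gained receptors, Lpar1 was detected in 66.1% of microneedle cells with an Htr7 UMI and in 53.6% of those without.

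Clusters of gated Langerhans cells split largely by library. Of their cells, 4734 croton oil cells fell in a cluster led by H2-Ea, 3933 microneedle cells in a cluster led by Scube1, and 4143 and 3400 untreated cells in clusters led by Klf2 and Hdac9. A cluster led by the heat-shock gene Hsph1 held 753, 742 and 669 gated cells of the 3 libraries. The clustering used all variable genes, these receptors possibly among them, so the values by cluster are a description. Hcar2, Adgre4, Lpar1 and Gpr171 were themselves among the leading genes of the Klf2-led, Hdac9-led, Scube1-led and H2-Ea-led clusters, in that order. Within the Hsph1-led cluster, Gpr183 stood at 42.9, 525 and 269 CPM, Gpr171 at 2.80, 249.7 and 66.4 CPM, and Adgre4 at 264, 30.6 and 48.2 CPM. All 7 receptors that were past 2-fold after croton oil were past it there too and in the same direction. Over all genes compared in that cluster, 5.35% were at least 2-fold higher and 4.82% lower after croton oil, and 3.73% and 2.4% after microneedles. The 7 were chosen on values that include these cells, so nothing is read from their count. Adgre5 was also past 2-fold in that cluster, at 3.86, 20.5 and 25.6 CPM, and P2ry14 after microneedles, with a log2 change of 1.12. Hcar2 in croton oil cells was less far below untreated there, with a log2 change of -1.22 against -2.15 over all gated cells, at 266 and 111 CPM.

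**Figure D4:**
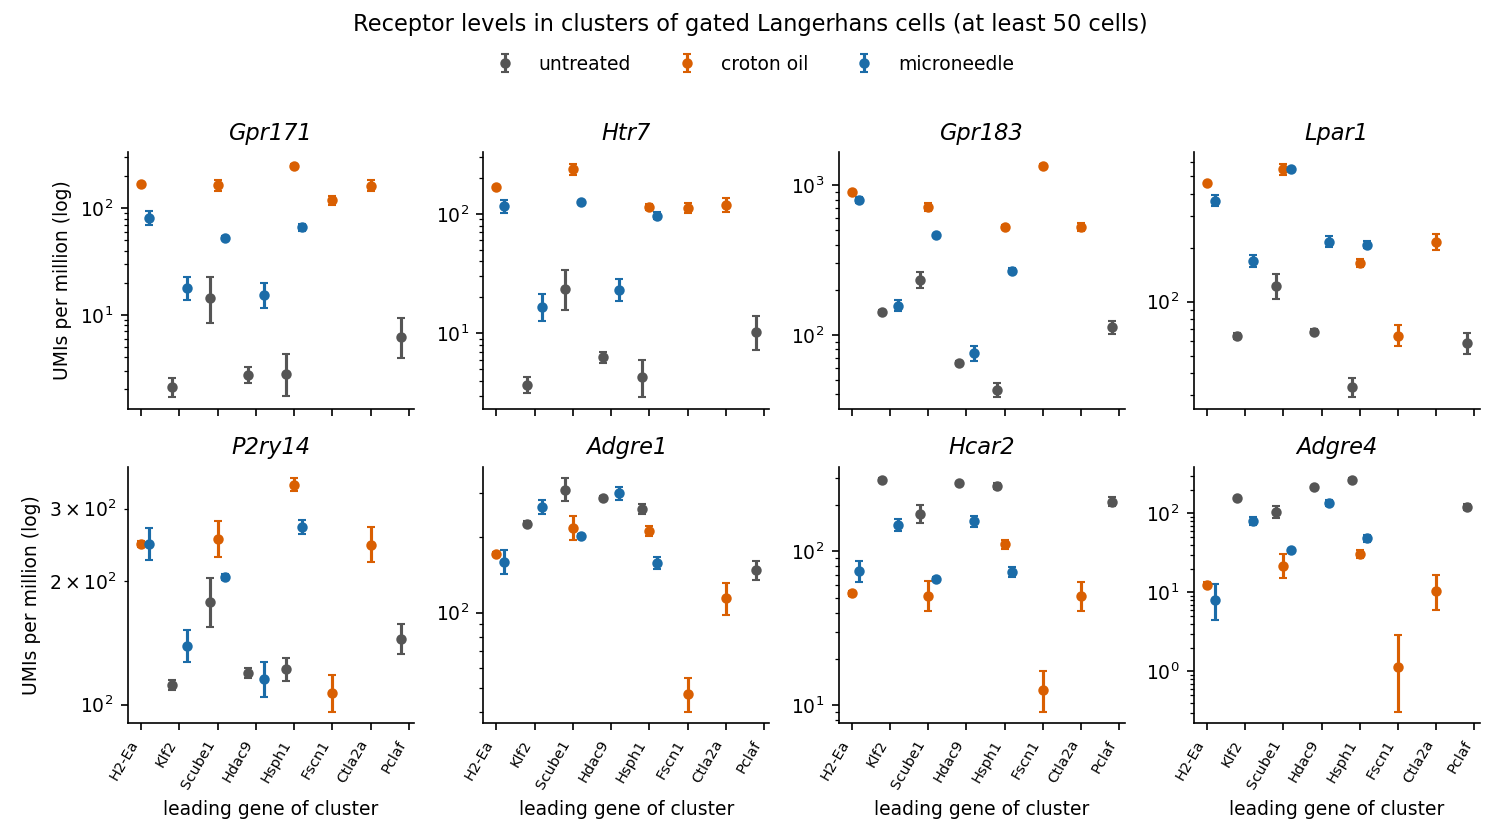
Levels of 8 receptors in clusters of gated Langerhans cells, in CPM on a log scale, by library, for clusters named by their leading gene with at least 50 cells of that library; bars are exact 95% Poisson intervals. Microneedle cells in the Klf2-led and Hdac9-led clusters lie between the untreated cells of those clusters and the Scube1-led microneedle cells for Adgre4, Hcar2, Lpar1 and Htr7; the Ctla2a-led cluster is the one that also holds T cells.

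Microneedle cells that fell among the untreated clusters had levels of Adgre4, Hcar2, Gpr171, Lpar1 and Htr7 between those of untreated cells and those of the main microneedle cluster. There were 272 such cells in the Klf2-led cluster and 212 in the Hdac9-led one. Their Adgre4 stood at 80.1 and 136 CPM, against 157 and 212 CPM in the untreated cells of the same clusters and 34.3 CPM in the Scube1-led microneedle cells. Their Htr7 stood at 16.5 and 23.2 CPM, against 3.66 and 6.27 CPM in untreated cells and 126 CPM in the Scube1-led ones. Lpar1 stood at 169 and 217 CPM, against 64.0 and 67.8 CPM and 547 CPM, and the Hsph1-led microneedle cells had 208 CPM. Gpr183, at 157 (144 to 171) and 75.3 CPM (66.7 to 84.7), overlapped in its intervals with the 143 (139 to 146) and 64.7 CPM (62.5 to 67.0) of untreated cells in those clusters, and the Scube1-led cells had 465 CPM. Adgre1 did not lie between. It stood at 263 and 299 CPM, beside 226 and 285 CPM in untreated cells and 202 CPM in the Scube1-led ones. In the Klf2-led cluster it was above untreated cells, and in the Hdac9-led one it overlapped them (281 to 317 and 280 to 290). P2ry14 lay between in the Klf2-led cluster, at 139 CPM beside 112 and 204 CPM, and overlapped untreated cells in the Hdac9-led one, at 115 beside 119 CPM. Adgre5 stood at 24.6 and 7.36 CPM, beside 17.7 and 7.43 CPM in untreated cells and 20.5 CPM in the Scube1-led ones. The 129 microneedle cells of the H2-Ea-led cluster, which was mostly croton oil cells, had 799 CPM of Gpr183 and 7.91 CPM of Adgre4, beside 898 and 12.5 CPM in the croton oil cells there. The Gpr183 intervals did not overlap (760 to 839 and 891 to 905), and those of Adgre4 did (4.52 to 12.8 and 11.7 to 13.4). P2ry14 stood at 246 CPM in both. Gpr171 stood at 81.1 CPM in these microneedle cells against 169.5 CPM in the croton oil cells, and Htr7 at 116 against 167 CPM. Lpar1 stood at 367 against 457 CPM and Hcar2 at 74.2 against 53.2 CPM. The intervals of these 4 did not overlap either.

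Croton oil cells of the Fscn1-led cluster carried a different set. In the 240 gated cells Gpr183 stood at 1350 CPM, while Lpar1 was at 64.6 CPM, Adgre1 at 47.3 CPM, P2ry14 at 107 CPM, Hcar2 at 12.5 CPM and Adgre4 at 1.14 CPM. Lpar1 was thus close to its untreated level of 63.4 CPM in these cells, although it was at 457 CPM in the H2-Ea-led cells of the same library. Htr7, at 112 CPM, and Gpr171, at 119 CPM, remained well above untreated. Outside the gate, 1125 croton oil cells of the Langerhans cell-like clusters had 1558 CPM of Gpr183 (1537 to 1579), 127 CPM of Lpar1 and 64.9 CPM of Adgre1. The 294 microneedle cells outside the gate had 1188 CPM of Gpr183 (1152 to 1224), 128 CPM of Lpar1 and 71.7 CPM of Adgre1. The 90 gated croton oil cells with UMIs of both Ccr7, the lymph-node homing receptor, and Fscn1 had 1370 CPM of Gpr183 and 68.9 CPM of Lpar1, against 850 and 406 CPM in the other gated cells.

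The 9 genes were placed among the other receptors of their ligand groups, from lists of adhesion, nucleotide, lipid, metabolite, amine and chemoattractant receptors. Of 126 such genes beside the 9, 27 reached the filter in the croton oil comparison, of which 8 were at least 2-fold higher and 6 lower, with a median log2 change of -0.13 against -0.03 over all genes. Of the 8, 7 reached the filter only through the croton oil library, and of the 6, 2 only through the untreated one, so these had to differ to be counted. In the microneedle comparison 24 reached it, with 3 higher, 3 lower and a median of -0.24 against 0.02. All 3 that were higher reached it only through the microneedle library, and 1 of those that were lower only through the untreated one. The shares over all genes were 5.53% higher and 5.46% lower after croton oil and 3.86% and 1.78% after microneedles, and nothing is read from the difference. Most receptors on the lists were therefore too low to compare in Langerhans cells.

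Among these receptors beside the 9, S1pr3, a sphingosine 1-phosphate receptor, stood at 5.36, 76.1 and 28.8 CPM, log2 changes of 2.97 and 1.71. Gpr55, a receptor for lysophosphatidylinositol, stood at 1.85, 49.4 and 27.7 CPM, changes of 2.99 and 2.26. Ccr1, a receptor for inflammatory chemokines, stood at 5.44, 77.9 and 16.6 CPM, with neutrophils at 965 and 1012 CPM. Ccr7 stood at 0.844, 21.4 and 2.43 CPM in gated cells. Adora2b, the low-affinity adenosine receptor, stood at 15.0, 39.8 and 16.4 CPM, so its level in the microneedle library was close to untreated. Celsr1, an adhesion receptor of planar cell polarity, had log2 changes of 1.07 and 0.85.

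The prostaglandin E2 receptors Ptger3 and Ptger4 were lower. Ptger4 stood at 96.3, 43.0 and 44.6 CPM, log2 changes of -1.08 and -1.03, and Ptger3 at 67.6, 29.2 and 50.3 CPM, changes of -1.08 and -0.39. Gpr34, a lysophosphatidylserine receptor, had changes of -1.21 and -1.13, its relative P2ry10b -1.16 and -0.97, and the adrenergic receptor Adra1a -1.68 and -0.70.

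**Figure D5:**
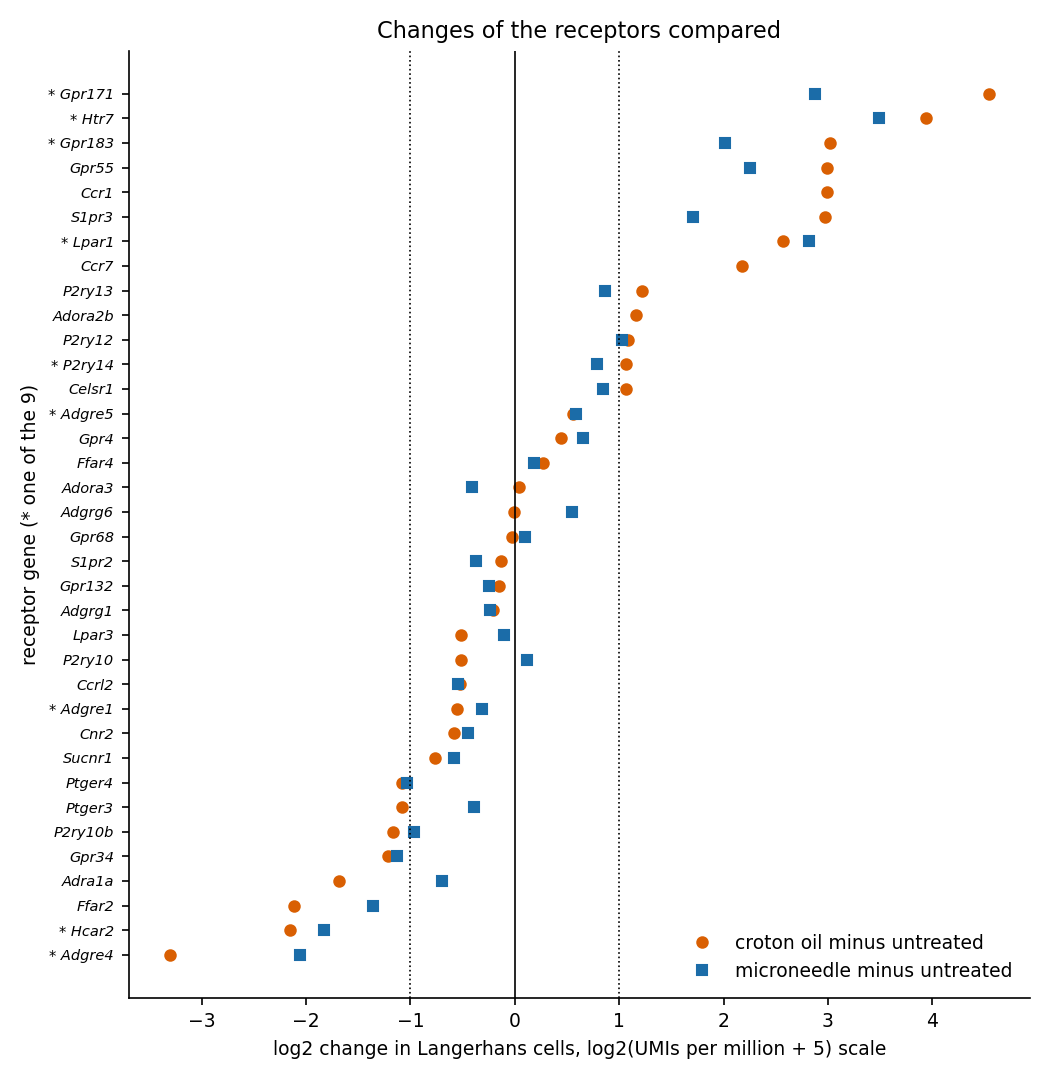
Log2 change in gated Langerhans cells of each receptor on the lists that reached 20 CPM, croton oil (circles) and microneedle (squares) against the same untreated library; asterisks mark the 9 genes and dotted lines mark 2-fold. Gpr55, Ccr1 and S1pr3 lie between Gpr183 and Lpar1 after croton oil.

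Downstream, 35 of 47 G protein subunits and regulators reached the filter after croton oil, of which 5 were at least 2-fold higher and 2 lower, with a median of -0.14. After microneedles 34 did, with 6 higher and 1 lower. In each comparison 1 of the higher genes reached the filter only through the treated library. Over all genes compared, 5.53% were higher and 5.46% lower after croton oil, and 3.86% and 1.78% after microneedles. The Gi, Gs and Gq subunits Gnai2, Gnas and Gnaq, looked up after the values were seen, had changes between -0.45 and 0.34. Gna13, a G12 family alpha subunit, stood at 178, 421 and 373 CPM, changes of 1.22 and 1.05. The cAMP phosphodiesterases differed in direction: Pde4b stood at 187, 624 and 665 CPM and Pde4d at 1034, 276 and 480.5 CPM, with Pde3b up by 1.14 and 1.26. Beta-arrestin 2 (Arrb2), which uncouples active receptors, stood at 29.8, 103 and 70.8 CPM, changes of 1.63 and 1.12, and Arrb1 had changes of 0.89 and 1.22. Gng10 had changes of 2.62 and 1.22, and the Gi and Gq regulator Rgs18 of -1.67 and -0.99.

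Genes that make or break down the ligands were mostly under the filter. Of 26, 9 reached it in each comparison, none was at least 2-fold higher, and 2 were lower after croton oil and 1 after microneedles, beside shares over all genes of 5.46% and 1.78% lower. All of these lower genes reached the filter only through the untreated library, and with 9 genes compared nothing is read from the counts. Those were Slc6a4 in both and Cyp27a1, a sterol 27-hydroxylase, at 36.2, 14.7 and 21.6 CPM. The oxysterol enzymes Ch25h, Cyp7b1 and Hsd3b7 and the lysophosphatidic acid-producing enzyme Enpp2, looked up after the values were seen, were at or under 1.35 CPM in every library. The CD97 ligands Cd55 and Thy1 were at or under 3.47 CPM.

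Positions on build GRCm39 in the GENCODE M39 annotation, with the same gene identifiers as the count files, showed that several of the genes lie inside other genes. Gpr171 (ENSMUSG00000050075, chromosome 3, 59003869 to 59009242) and P2ry14 (59021276 to 59061134) lie 12033 bases apart on the minus strand within Med12l, a Mediator subunit gene on the plus strand, without sharing an exon with it. P2ry13 and P2ry12, receptors for ADP, lie in the same gene. After croton oil the log2 changes at this locus were 4.54 for Gpr171, 1.07 for P2ry14, 1.22 for P2ry13, 1.08 for P2ry12 and 1.10 for Med12l. After microneedles they were 2.88, 0.79, 0.86, 1.03 and 1.01. P2ry12 shares exon sequence with Med12l, and whether counting used the strand or intronic reads is not given in the sources used here, so reads of overlapping genes may not be separable. Gpr183 (chromosome 14, 122189592 to 122202610, minus strand) lies within Ubac2 and overlaps 1 of its exons on the other strand. Ubac2 had changes of -0.43 and -0.10, unlike Gpr183 with 3.02 and 2.01.

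The remaining genes lie in no other gene: Adgre4 at chromosome 17, 56056984 to 56175274, Adgre1 at chromosome 17, 57665573 to 57790527, Adgre5 at chromosome 8, 84446992 to 84467955, Hcar2 at chromosome 5, 124001633 to 124003562, Lpar1 at chromosome 4, 58435250 to 58554635, and Htr7 at chromosome 19, 35935818 to 36035177.

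For each receptor the 2 genes with the most similar levels were found over 10 pools (library and cell class, at least 50 cells each) among 10592 genes, by Pearson correlation of log2(CPM + 5). The pools share libraries, cell classes and free RNA, so the values describe likeness only. Adgre4 was most like Tnfsf15, a TNF family cytokine (r = 0.99), and Kynu, kynureninase (0.98). Gpr171 was most like Icos (0.98) and Tnfrsf9 (0.96), costimulatory receptors of T cells. In Langerhans cells Tnfrsf9 itself stood at 8.36, 508 and 73.0 CPM and Icos at 0.167, 33.6 and 13.7 CPM. Gpr183 was most like the complement gene C1qa (0.97), at 59.2, 1481 and 487 CPM, and the riboflavin kinase gene Rfk (0.95). Htr7 was most like Il21r (0.97), the interleukin-21 receptor, at 7.21, 204 and 221 CPM, and S1pr3 (0.96). Lpar1 was most like Rab3gap2 (0.98) and Ifi205 (0.96), Hcar2 like the neutrophil protease gene Mmp9 (0.93) and Ogfrl1 (0.92), P2ry14 like Cep83 (0.99) and 1700003F12Rik (0.98), Adgre5 like Gmfg and Mxd1 (both 0.99), and Adgre1 like Vwf and Cdk14 (both 0.98).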

How the data were processed

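The deposited values were UMI counts per gene and cell barcode, and the headers of the authors' matrices name Cell Ranger 8.0.0; the submitters' processing notes name build GRCm39. Everything after the counts was computed here. Cells with at least 500 genes and at most 10% mitochondrial UMIs were kept. Scrublet's automatic threshold marked at most 1 cell per library, so the highest scores were removed instead, 0.8% per 1000 cells. Scanpy 1.11.5 gave joint Leiden clusters (resolution 0.5, 2000 variable genes, 30 components, 15 neighbours), named from marker lists. UMIs were summed over gated cells per library and scaled to CPM. Changes were log2((CPM + 5)/(CPM + 5)) with a 2-fold rule. Intervals are exact Poisson for CPM and exact binomial (Clopper-Pearson) for shares. edgeR 4.0.16 gave TMM factors for an alternative scaling only; no count test was run, since each group has 1 library.

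The receptors, gene lists and markers were chosen with earlier results of these data known. The rule for named genes took the 9 receptors, genes of the lists at least 2-fold from untreated in either treated library, and the 2 most similar genes per receptor; other genes named (further members of the lists, neighbours in the genome and cell markers) were added after their values were seen. Summed markers of conventional dendritic cells in gated cells stood at 156, 141 and 115 CPM, of mast cells at 11.1, 23.1 and 18.9, of melanocytes at 50.7, 71.5 and 93.7, of B cells at 1.52, 1.03 and 1.55, of fibroblasts at 0.223, 0.208 and 0.506, and of endothelial cells at 33.2, 27.1 and 32.1 CPM. Protein sequences were not used here.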

Additional observations from a re-analysis of the deposited data

How the results depend on the processing

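The 13 alternatives chosen at the start varied scaling, pseudocount, low-level filter, gate, doublet removal and cells with other markers; an alternative within the Hsph1-led cluster was chosen after seeing the data. All 18 receptor changes kept their sign under these 14 settings. Calls at 2-fold changed in 3 cases within the Hsph1-led cluster: Adgre5 was 1.53 after croton oil and 1.79 after microneedles on the log2 scale, and P2ry14 was 1.12 after microneedles. With all cells of Langerhans cell-like clusters, P2ry14 after croton oil was 0.93 and under the 2-fold line. Over the alternatives, Gpr171 ranged from 4.42 to 5.55 after croton oil and from 2.84 to 3.81 after microneedles, and Adgre4 from -3.61 to -2.92 and from -2.34 to -2.03. Of the counts over all genes, a filter at 50 CPM left 227 genes at least 2-fold lower after croton oil, beside 373, and 68 after microneedles, beside 119, since it tests 4047 and 3928 genes. Shares of positive cells moved with the thinning depth in 80 of 81 values, because deeper cells show more UMIs. Depth limits what can be said of Gpr171 and Htr7 in untreated cells and of Adgre5 in any library. No paired analysis was possible because each group has 1 library.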

Other observations

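Counted without the 9 receptors, 10 lipid receptors were compared after croton oil, of which 2 were at least 2-fold higher (Gpr55 and S1pr3) and 2 lower (Ptger3 and Ptger4). After microneedles 10 were compared, with the same 2 higher and 1 lower (Ptger4). Of 7 nucleotide and nucleoside receptors, 3 were higher after croton oil (P2ry12, P2ry13 and Adora2b) and 2 lower (Gpr34 and P2ry10b), and of 6 after microneedles 1 was higher (P2ry12) and 1 lower (Gpr34). These 5 higher genes reached 20 CPM only through a treated library, and Gpr34 and P2ry10b, in the comparisons that count them, only through the untreated one. Of 3 metabolite receptors none was higher and 1 was lower (Ffar2) in each comparison, with Sucnr1, the succinate receptor, at 31.0, 16.1 and 19.0 CPM and a log2 change of -0.77 after croton oil. Over all genes compared, 5.53% were higher and 5.46% lower after croton oil, and 3.86% and 1.78% after microneedles. Sucnr1 was chosen after its values were seen.

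Cxcr4, the receptor for the chemokine Cxcl12, was under the 20 CPM filter in all 3 libraries at 1.67, 15.8 and 3.60 CPM and was not compared; it was picked out after its values were seen. In the untreated library, 158 cells of the Langerhans cell-like clusters failed the gate. They were shallow, with a median of 2867 UMIs against 11526 inside the gate, and had 248 CPM of Gpr183 (208 to 293) against 101 CPM.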
